A study of Mus musculus with 12 samples.

Results

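Tumours of 4T1, a mouse line of triple-negative mammary carcinoma, were compared between mice housed under simulated altitude and mice kept at ambient altitude, with every mouse in the comparison treated with IOX2. The 2 groups are HI, kept in a hypobaric chamber set to 3500 m, and MI, kept at the ambient altitude of about 1500 m. Each group has 3 tumours, each from a different mouse, so 6 of the 12 libraries of the series enter the comparison. Both groups share all else that the labels give: female BALB/c mice aged 6 to 8 weeks, 4T1 cells injected under the skin of the back after 3 days of acclimatization, and tumours taken on study day 22. IOX2 was given to both at 10 mg/kg into the peritoneum once a day for 10 days, starting 9 days after the cells. The other groups, HC (simulated 3500 m with vehicle) and MC (ambient with vehicle), enter as the same altitude comparison without the drug. The model is a single cell line grown under the skin and not in the mammary gland. Chamber housing and low pressure go together in this design and cannot be told apart. A gene was tested if it had at least 10 counts in at least 3 of the 6 HI and MI libraries, which 14869 of 35434 genes did.

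Cells sense oxygen through prolyl hydroxylases, which use oxygen to mark the hypoxia-inducible factors HIF-1α (Hif1a) and HIF-2α (Epas1) for destruction. When oxygen is short, or when a prolyl hydroxylase inhibitor such as IOX2 is present, the factors persist and switch on genes of glycolysis, vessel growth and red cell production. In a tumour the vessels bring the oxygen, and their walls are built from endothelial cells, from the mural cells (pericytes and smooth muscle cells) wrapped around them, and from the basement membrane between the layers. Oxygen sensing is regulated mainly at the level of protein, which these RNA libraries do not measure.

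The 6 libraries held 37913875 (MI3) to 40019343 (MI2) counts, so a count of 0 in a library allows up to 0.0728 to 0.0854 CPM (CPM, counts scaled to a common library size and composition, with 3 counts as the floor and counting error only). The tumours differed in content within each group, counted over 11129 genes at a mean of 5 CPM or more. MI3 held 204 genes at least 2-fold above both other MI tumours, and mitochondrial transcripts made up 2.96% of its counts, against 1.61% to 2.14% in the other 5 libraries. MI1 held 85 such genes. Its B-cell and plasma cell markers, summed over 13 genes without Sdc1, were at 754 CPM, against 2.98 to 19.7 CPM in the other 5 libraries, and its muscle actin Acta1 was at 201 CPM, against 9.10 CPM in MI2. HI1 held 46 genes at least 2-fold above both its mates and 53 at least 2-fold below. HI1 alone held many keratin 5 counts (484 of Krt5, a keratinocyte gene, against 0 to 9 in the other 5). MI2 had 118 genes at least 2-fold below both its mates and 1 above. HI3 had 71 below and 16 above, and HI2 had 9 below and 6 above. The 4T1 carcinoma markers Krt8, Krt18 and Epcam were high in all 6, at no less than 342 CPM for any of them.

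No gene passed an adjusted p under 0.05 between HI and MI tumours in edgeR, which is 0% of those tested. The smallest adjusted p was 0.0589, and 17 genes (0.114%) lay under 0.10. At an unadjusted p under 0.05 there were 2279 genes (15.3%), with 1005 of them on the higher side in HI tumours (6.76%) and 1274 on the lower (8.57%). The count depended on the test and on MI2: DESeq2 called 374 genes (2.52%), 139 higher (0.935%) and 235 lower (1.58%), and edgeR without MI2 called 563, 124 higher and 439 lower. The limma fits, on counts and on the deposited FPKM, called 0. Many changes below are therefore given with their values and adjusted p, others by log2 change alone or with its SE. None passed in the main edgeR fit on the full set of libraries. Other filters or scalings in edgeR on that set called up to 16 genes. The calls without MI2 were 0.834% of genes on the higher side and 2.95% on the lower. On the lower side they included 12 of 24 endothelial, 7 of 18 vessel growth, 3 of 17 mural and 4 of 28 interferon genes. Chaperones gave 3 of 22, mitochondrially encoded genes 5 of 13 and B-cell genes 4 of 8. Matrix enzymes and inhibitors gave 4 of 20, basement membrane genes 3 of 20, and epithelial-mesenchymal and D-cyclin genes 3 of 13 each. The MI tumours left in that fit are MI1, highest in B-cell markers, and MI3, highest in mitochondrial transcripts. On the higher side they included 3 clock genes and 3 HIF targets other than glycolysis.

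**Figure D1:**
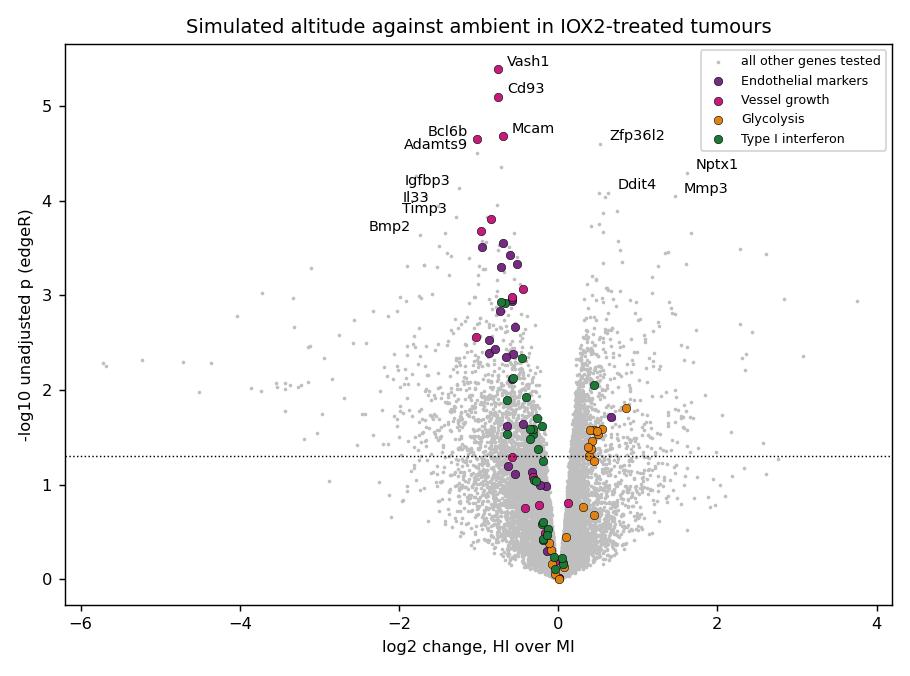
All genes tested (grey) with the log2 change of HI over MI tumours on the x axis and the -log10 of the unadjusted edgeR p-value on the y axis, members of 4 gene lists in colour, and a dotted line at the 0.05 level. Vessel and endothelial genes fill the upper left, with Vash1 and Cd93 at the top, while glycolysis genes lie to the right of 0 at modest p.

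Genes of blood vessels led the lower side. The 12 lower genes with the smallest p were drawn only from genes whose groups did not overlap. Separation is thus a condition of choice for them, and for the 12 higher genes drawn alike, and no result. The first 4 of the lower genes, Vash1, Cd93, Mcam and Bcl6b, are all genes of endothelium. Vash1 encodes vasohibin 1, an inhibitor of vessel growth made by endothelial cells. It was at 19.4, 19.4 and 20.9 CPM in HI tumours, against 37.1, 31.2 and 32.3 CPM in MI tumours. The groups lay far apart, with the highest HI tumour well under the lowest MI tumour, at a log2 change of -0.75 (SE 0.09, adjusted p = 0.0589). Cd93, a receptor on growing endothelium, was at 56.4, 62.1 and 58.0 CPM in HI tumours, against 110.4, 84.9 and 102 CPM in MI tumours. Its 3 HI values lay within a narrow band below all MI values, at a log2 change of -0.75 (SE 0.10, adjusted p = 0.0589).

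Mcam (CD146), an adhesion molecule of endothelium and pericytes, was at 69.1, 82.9 and 78.6 CPM in HI tumours, against 138, 123 and 112 CPM in MI tumours. By the rule of choice its groups did not overlap, and the log2 change was -0.70 (SE 0.10, adjusted p = 0.0744). Bcl6b, a transcriptional repressor found in endothelium, was lower in abundance, at 5.35, 5.97 and 5.70 CPM in HI tumours, against 14.0, 9.61 and 11.0 CPM in MI tumours. Its log2 change was -1.02 (SE 0.15, adjusted p = 0.0744), about the size seen for Adamts9, a secreted metalloprotease, which was at 13.1, 15.8 and 17.6 CPM in HI tumours, against 35.9, 28.5 and 30.0 CPM in MI tumours. MI1 was the highest MI tumour for all of Vash1, Cd93, Mcam, Bcl6b and Adamts9.

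**Figure D2:**
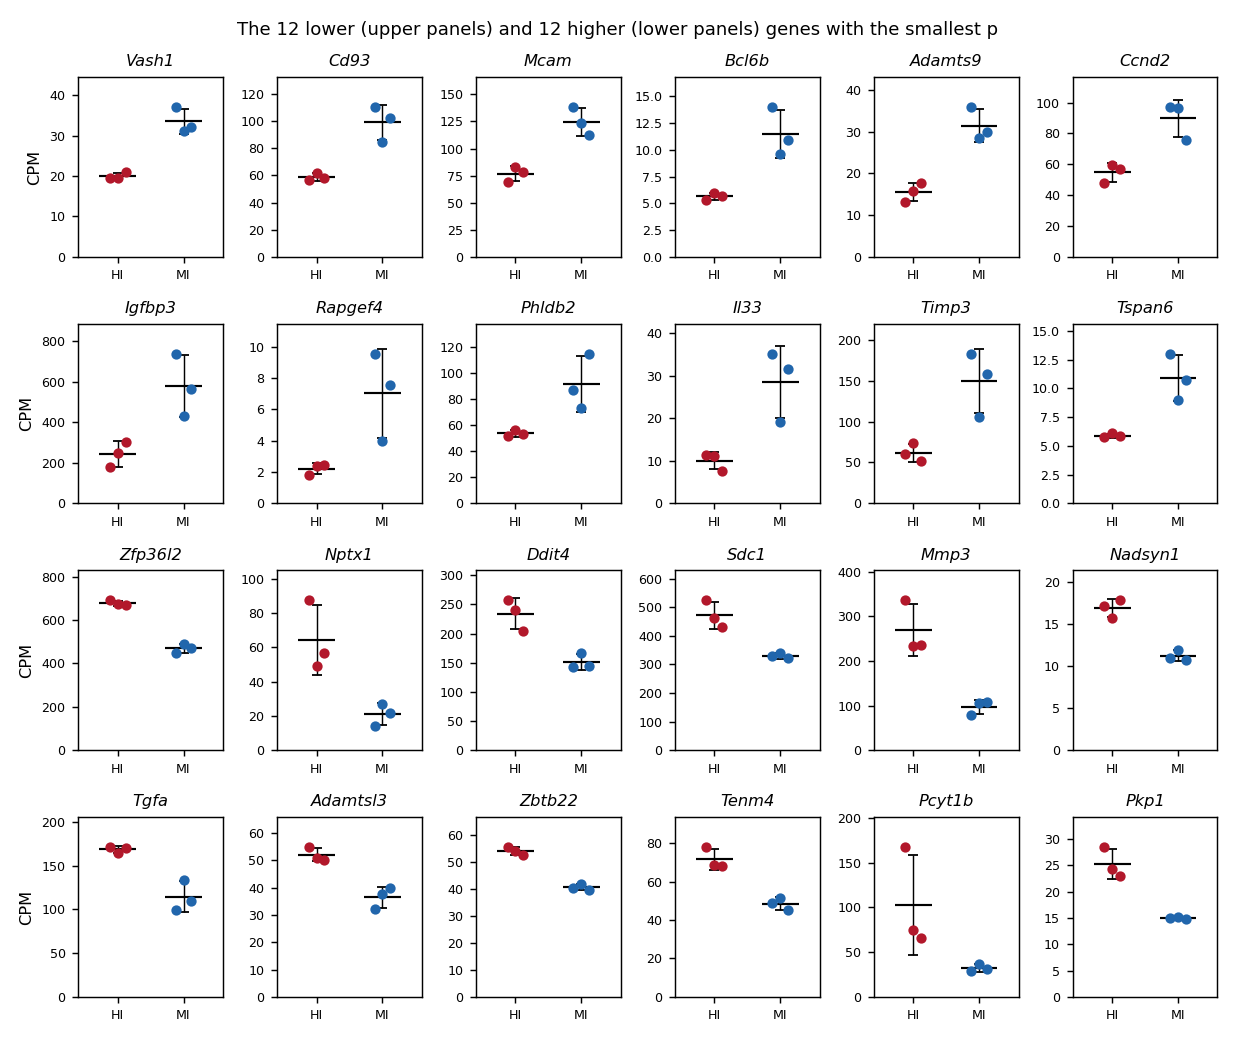
CPM in each tumour for the 12 lower genes (upper 2 rows of panels) and 12 higher genes (lower 2 rows) with the smallest p among genes whose groups did not overlap; points are the 3 HI tumours (red, left) and 3 MI tumours (blue, right), and black lines are the mean and SD. The HI values of Vash1, Cd93 and Zfp36l2 are tightly grouped, while those of Nptx1 and Pcyt1b are spread by a high HI1.

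The endothelial marker list was lower almost as a whole. Of its 24 members, all tested, 23 had a log2 change below 0, as did 52.3% of all genes, and 17 lay at an unadjusted p under 0.05 on the lower side, against 8.57% of all genes. The median log2 change was -0.58, against -0.01 over all genes, and the groups did not overlap, HI below MI, in 16 members, against 6.58% of all genes. None passed in edgeR, and 14 were called lower by DESeq2, against 1.58% of all genes. Without MI1 the list had 15 lower members under that p, with a median of -0.48, and without MI1 and HI1 together 13, with a median of -0.42. In bulk tissue, fewer endothelial cells and less RNA per endothelial cell cannot be told apart.

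Cdh5, the VE-cadherin that joins endothelial cells to each other, was at 57.2, 69.1 and 62.3 CPM in HI tumours, against 117, 87.8 and 99.5 CPM in MI tumours. Its log2 change was -0.69 (SE 0.13, adjusted p = 0.117). Pecam1 (CD31), a junction protein used to stain vessels, was at 84.4, 85.1 and 78.8 CPM in HI tumours, against 142, 102 and 112 CPM in MI tumours, and its HI values kept within a few CPM of each other. The log2 change of Pecam1 was -0.52 (SE 0.11, adjusted p = 0.122). The receptor kinase Tie1 was at 25.2, 24.4 and 22.7 CPM in HI tumours, against 43.3, 32.3 and 34.4 CPM in MI tumours, with a log2 change of -0.61 (SE 0.12, adjusted p = 0.118). In all 3 genes every HI tumour lay below every MI tumour.

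The endothelial transcription factors were lower by a similar amount. Sox18 was at 15.7, 16.7 and 16.6 CPM in HI tumours, against 28.3, 24.6 and 27.6 CPM in MI tumours, with a log2 change of -0.71 (SE 0.15, adjusted p = 0.122). Sox7, less abundant, was at 2.16, 2.49 and 3.36 CPM in HI tumours, against 5.35, 5.24 and 4.96 CPM in MI tumours, with a log2 change of -0.95 (SE 0.19, adjusted p = 0.117). Egfl7, a secreted protein of endothelium, was at 24.9, 25.6 and 23.9 CPM in HI tumours, against 45.6, 32.7 and 33.1 CPM in MI tumours, with a log2 change of -0.58 (SE 0.13, adjusted p = 0.156). Again no HI tumour reached an MI tumour. Among the members not named by p, and chosen here after their values were seen, the exception was Vwf, the von Willebrand factor of endothelium and platelets, at a log2 change of 0.66 (SE 0.24, adjusted p = 0.268), and Flt1, a decoy receptor for VEGF, was at only -0.14 (SE 0.20, adjusted p = 0.753).

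The vessel growth list, genes of sprouting endothelium, had 15 of 18 members below 0 and a median of -0.51. At an unadjusted p under 0.05 there were 9 on the lower side and 0 on the higher, against 8.57% and 6.76% of all genes. Nid2, a linker protein of the basement membrane, was at 32.5, 36.8 and 32.2 CPM in HI tumours, against 69.3, 50.01 and 62.9 CPM in MI tumours. The lowest MI tumour, MI2, was still above every HI tumour, and the log2 change was -0.84 (SE 0.15, adjusted p = 0.104). Pcdh12, a protocadherin of endothelium, was at 3.47, 4.39 and 5.42 CPM in HI tumours, against 10.5, 8.13 and 7.46 CPM in MI tumours, with a log2 change of -0.97 (SE 0.18, adjusted p = 0.113). Without MI1 9 members lay under that p, with a median of -0.44.

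Mural cell genes followed, less evenly. Of 17 members 15 were below 0, with a median of -0.55. At an unadjusted p under 0.05, 7 were lower, against 8.57% of all genes. Rgs5, a regulator of G-protein signalling that marks pericytes, was at 38.2, 46.3 and 60.5 CPM in HI tumours, against 102, 74.8 and 144 CPM in MI tumours. All HI values lay below all MI values, and MI3 was the highest, at a log2 change of -1.15 (SE 0.28, adjusted p = 0.182). Pdgfrb, the pericyte receptor for PDGF-B, was at 75.1, 67.6 and 79.0 CPM in HI tumours, against 118, 87.9 and 96.9 CPM in MI tumours, with a log2 change of -0.45 (SE 0.12, adjusted p = 0.201). Acta2, smooth muscle actin, was at 144, 144 and 106 CPM in HI tumours, against 266, 165 and 166 CPM in MI tumours, with a log2 change of -0.60 (SE 0.19, adjusted p = 0.231). This list leaned on MI1, in which Acta2 and Mylk were highest: without MI1 its median was -0.30, with 13 of 17 below 0 and 4 under that p. Summed skeletal muscle markers were also highest in MI1, at 741 CPM, against 58.9 and 194 CPM in MI2 and MI3 and 278, 258 and 103 CPM in HI1, HI2 and HI3, and their part in the mural values was not tested.

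In the VEGF list of ligands and receptors 5 of 10 members were above 0 and 5 below, at a median of -0.07. Without HI1 8 were below 0, at a median of -0.41. Of the receptors, Kdr (VEGFR2), the main receptor of VEGF-A, was at 23.3, 27.2 and 26.1 CPM in HI tumours, against 44.9, 31.8 and 36.8 CPM in MI tumours, and its groups did not overlap, at a log2 change of -0.57 (SE 0.16, adjusted p = 0.212). Flt4 (VEGFR3) was at 7.54, 9.75 and 8.38 CPM in HI tumours, against 22.6, 11.6 and 12.8 CPM in MI tumours, at -0.87 (SE 0.23, adjusted p = 0.202), with MI1 well above the other 2 MI tumours. The ligand Vegfa itself, named after its values were seen, was at 100.1, 63.3 and 64.1 CPM in HI tumours, against 102, 84.4 and 76.4 CPM in MI tumours. The groups overlapped and its log2 change was -0.21 (SE 0.32, adjusted p = 0.763), with a 95% interval of -0.91 to 0.49.

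The Notch pathway is one through which a leading endothelial cell keeps its neighbours from sprouting. Of its 12 members 4 were lower at an unadjusted p under 0.05, against 8.57% of all genes. They were Hey1, Dll4, Notch4 and Heyl, a Notch target, a ligand, a receptor and a second target, all found in vessels. Hey1 was at 1.36, 1.01 and 1.67 CPM in HI tumours, against 3.18, 3.91 and 3.76 CPM in MI tumours, the largest change of the list, at a log2 change of -1.43 (SE 0.27, adjusted p = 0.113). Dll4, the ligand of tip cells, was at 14.6, 17.9 and 17.5 CPM in HI tumours, against 23.4, 22.7 and 21.8 CPM in MI tumours, with a log2 change of -0.44 (SE 0.10, adjusted p = 0.156). Both had no overlap. The median of the whole list was -0.10, close to that of all genes, and Dll1, another ligand, stood higher at 0.44 ± 0.19 (log2 ± SE). Bmp2, a ligand of the BMP pathway, was at 2.24, 3.65 and 5.99 CPM in HI tumours, against 17.0, 10.2 and 12.6 CPM in MI tumours, with a log2 change of -1.74 (SE 0.33, adjusted p = 0.114). The list of BMP genes and their Id targets had 8 of 12 below 0, against 52.3% of all genes, at a median of -0.20. Only 1 was lower under that p, near the 8.57% of all genes.

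Basement membrane genes were split. At an unadjusted p under 0.05, 6 of 20 were lower and 4 higher, against 8.57% and 6.76% of all genes. Without HI1 6 were lower and 1 higher. Nid2, Col15a1, Lama4 and Col4a1 stood lower, and Col18a1, the source of endostatin, stood higher. Col15a1 was at 102, 114 and 86.8 CPM in HI tumours, against 202, 161 and 178 CPM in MI tumours, and Lama4, a laminin chain of vessel walls, at 52.0, 56.7 and 46.7 CPM in HI tumours, against 91.6, 63.1 and 71.9 CPM in MI tumours. Their log2 changes were -0.84 ± 0.20 and -0.54 ± 0.14. Col18a1 was at 474, 377 and 403 CPM in HI tumours, against 293, 340.2 and 265 CPM in MI tumours, with HI above MI throughout, at a log2 change of 0.48 (SE 0.12, adjusted p = 0.182). Collagens and other matrix genes were lower in 23 of 24 cases, but only 3 were lower under that p, against 8.57% of all genes. No member separated the groups, and without MI1 the median of -0.22 came to -0.09.

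Matrix enzymes and their inhibitors, 20 tested, had 4 members on each side at an unadjusted p under 0.05. Of all genes 8.57% were lower and 6.76% higher under that p. Without HI1 5 members were lower and 1 higher. Mmp3, stromelysin 1, was at 336, 234 and 236 CPM in HI tumours, against 78.8, 106 and 107 CPM in MI tumours. Each HI tumour was more than 2-fold above the highest MI tumour, at a log2 change of 1.47 (SE 0.25, adjusted p = 0.0908). Plau, the urokinase activator of plasminogen, was also higher in HI, at 0.53 (SE 0.18, adjusted p = 0.249). Timp3, a matrix-bound inhibitor of such enzymes, was at 59.8, 73.3 and 51.4 CPM in HI tumours, against 183, 106 and 158 CPM in MI tumours, at a log2 change of -1.28 (SE 0.23, adjusted p = 0.104). Plat, the tissue-type plasminogen activator, was lower in HI, at -0.82 (SE 0.21, adjusted p = 0.191).

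**Figure D3:**
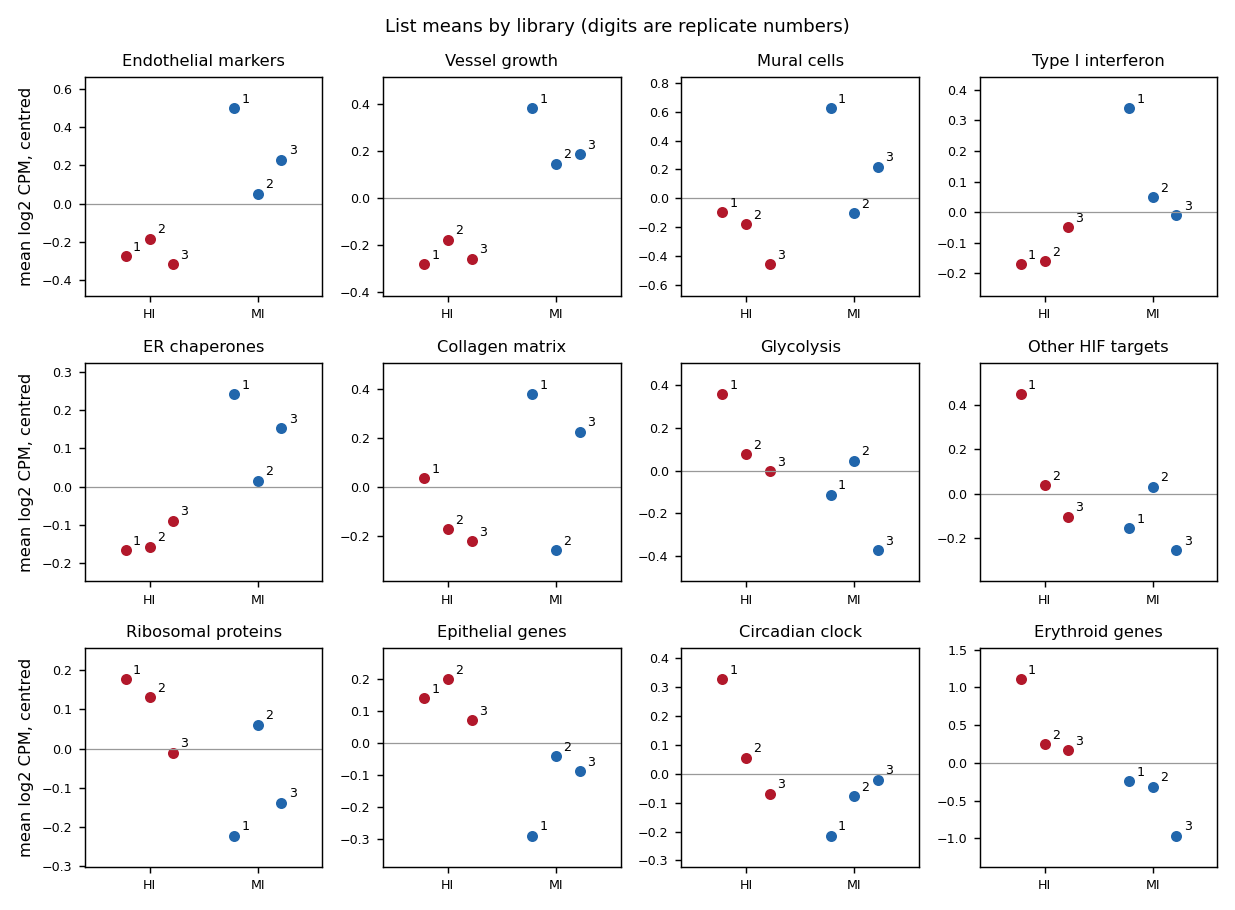
Mean over list members of log2 CPM, each gene centred on its mean over the 6 HI and MI libraries, for 12 lists in the 3 HI tumours (red, left) and 3 MI tumours (blue, right); digits are replicate numbers. Endothelial and vessel growth means separate the groups, at -0.32 to -0.18 in HI and 0.05 to 0.50 in MI for endothelial markers, while for glycolysis, HIF targets and clock genes HI1 stands above the rest.

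Other lower genes with small p came from other processes. Igfbp3, which binds insulin-like growth factors, was at 179, 251 and 303 CPM in HI tumours, against 739, 432 and 567 CPM in MI tumours. It was the most abundant of the 12 lower genes in MI tumours on the CPM scale, and its log2 change was -1.24 (SE 0.21, adjusted p = 0.0908). Il33, an alarmin released by damaged stromal cells, was at 11.4, 11.0 and 7.66 CPM in HI tumours, against 35.1, 19.1 and 31.5 CPM in MI tumours, with a log2 change of -1.51 (SE 0.26, adjusted p = 0.0982). Ccnd2, cyclin D2, was at 47.7, 59.7 and 56.7 CPM in HI tumours, against 97.1, 96.3 and 76.0 CPM in MI tumours, with a log2 change of -0.72 (SE 0.11, adjusted p = 0.0893). By the rule of choice none of the 3 overlapped between groups. Rapgef4, Phldb2 and Tspan6 completed the 12, at log2 changes of -1.67, -0.77 and -0.89. Among genes without overlap and at 5 CPM or more in MI tumours, the largest lower values were Cd79b, Ccl21a and Aldh1a2, at -4.71, -4.51 and -3.44. Without MI1 they were at -0.80, -1.36 and -1.89. Cd79b, part of the B-cell receptor, was at 0.209, 0.247 and 0.448 CPM in HI tumours, against 22.9, 0.558 and 0.484 CPM in MI tumours. Megf11, Cd4 and the mast cell protease Mcpt1 followed at -2.32, -2.06 and -1.99. Cd4 was at -1.02 without MI1. On the log2(FPKM + 1) scale, which shrinks changes of low genes, Megf11 was at -0.56, Cd4 at -0.89 and Rapgef4 at -0.45.

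On the higher side, among genes likewise drawn without overlap, the smallest p belonged to Zfp36l2, a protein that speeds decay of AU-rich messenger RNA. It was at 691, 674 and 670.3 CPM in HI tumours, against 449, 492 and 470.2 CPM in MI tumours. The spread within each group was small beside the gap, and the log2 change was 0.53 (SE 0.08, adjusted p = 0.0744). Nptx1, a pentraxin best known from neurons, was at 87.3, 48.9 and 56.4 CPM in HI tumours, against 14.1, 26.9 and 21.9 CPM in MI tumours, with a log2 change of 1.62 (SE 0.26, adjusted p = 0.0893) and HI1 the highest. Sdc1, the cell-surface heparan sulfate proteoglycan syndecan 1, was at 524, 462 and 431 CPM in HI tumours, against 329, 339 and 321 CPM in MI tumours, with a log2 change of 0.52 (SE 0.09, adjusted p = 0.0908). Pcyt1b, an enzyme of phosphatidylcholine synthesis, was at 167, 75.2 and 66.2 CPM in HI tumours, against 28.7, 37.2 and 30.8 CPM in MI tumours, at 1.67 (SE 0.32, adjusted p = 0.113). Nadsyn1, Adamtsl3, Zbtb22, Tenm4 and Pkp1, the last a desmosome protein, stood higher by log2 changes of 0.59, 0.52, 0.41, 0.56 and 0.75. By size the largest at 5 CPM or more, beside Pcyt1b, were Ehf, Cxcl2, Klk10, Cstdc5 and Rufy4, at 2.31, 2.06, 1.69, 1.62 and 1.62, with adjusted p from 0.209 to 0.283. Without HI1 Klk10 was at 0.80 and Rufy4 at 0.88, and on the log2(FPKM + 1) scale Ehf was at 0.735 and Rufy4 at 0.74. Reads of Cstdc5, one of several near-identical stefin genes, may be split between copies.

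Ligands of the epidermal growth factor receptor family were collected into a list after their values were seen, so their counts are a description. Tgfa was at 171, 165 and 171 CPM in HI tumours, against 99.4, 134 and 110.1 CPM in MI tumours, the HI values within a few CPM of each other, at a log2 change of 0.56 (SE 0.10, adjusted p = 0.104). Areg, amphiregulin, was at 37.7, 24.1 and 25.1 CPM in HI tumours, against 11.8, 13.1 and 9.20 CPM in MI tumours, at 1.35 (SE 0.27, adjusted p = 0.117). Hbegf was at 196, 163 and 129 CPM in HI tumours, against 119, 121 and 99.2 CPM in MI tumours, at 0.52 (SE 0.14, adjusted p = 0.199). All 3 separated the groups. Of the 9 ligands tested 7 were above 0. Those below were Ereg, under 2 CPM in every HI and MI tumour and overlapping between groups, at -0.75 (SE 0.60, adjusted p = 0.541), and Nrg1, without overlap, at -0.42 (SE 0.23, adjusted p = 0.388).

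**Figure D4:**
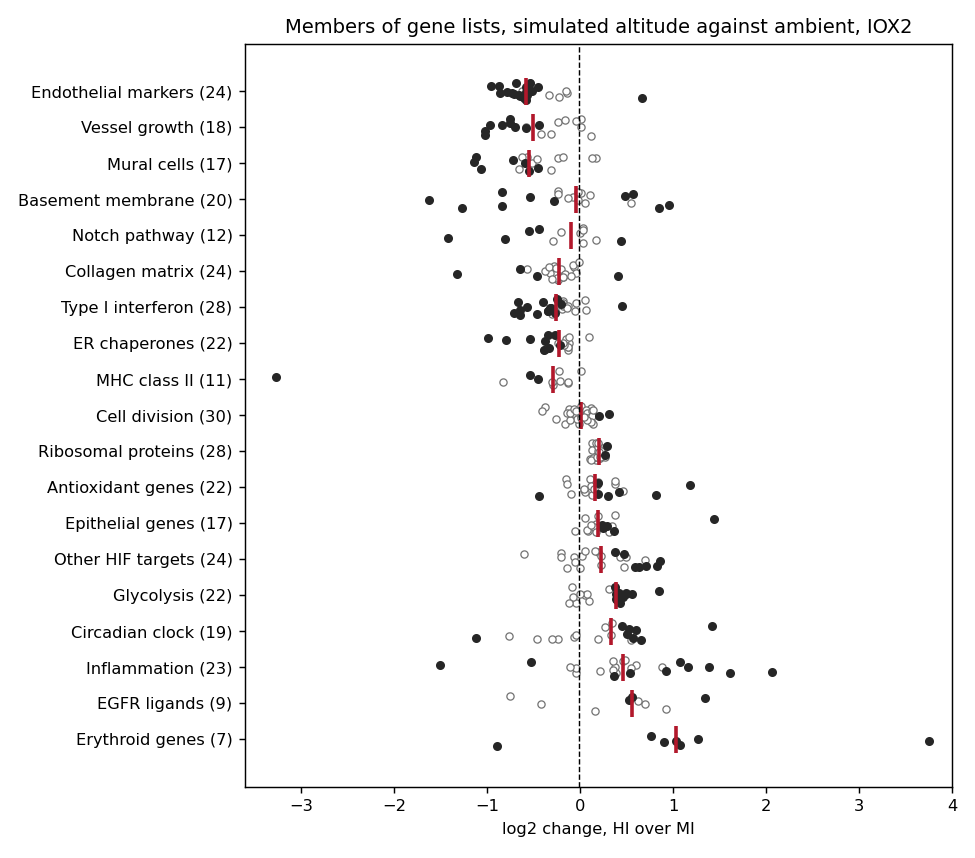
Log2 change of HI over MI tumours for each tested member of 19 gene lists (number of members in parentheses); filled points have an unadjusted p under 0.05, open points do not, red bars are list medians and the dashed line is the median of all genes, -0.01. Endothelial, vessel growth and mural lists have medians of -0.58, -0.51 and -0.55, and glycolysis has a median of 0.38.

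Oxygen sensing itself was examined through its own genes. Egln1, which encodes the prolyl hydroxylase that IOX2 inhibits, was at 271, 191 and 180.0 CPM in HI tumours, against 154, 186 and 142 CPM in MI tumours. HI1 was the highest, HI3 was below MI2, and the log2 change was 0.42 (SE 0.18, adjusted p = 0.308), and 0.20 without HI1. Egln2 and Egln3, the sister enzymes, were at -0.04 (SE 0.10, adjusted p = 0.868) and -0.17 (SE 0.22, adjusted p = 0.718). Hif1a was at 306, 241 and 287 CPM in HI tumours, against 435, 262 and 720.4 CPM in MI tumours. MI3 was far the highest, HI tumours overlapped MI2, and the log2 change was -0.77 (SE 0.28, adjusted p = 0.266). It was -0.33 without MI3, and -1.06 without MI2, where it passed in edgeR (adjusted p = 0.0316). Epas1 was at -0.25 (SE 0.21, adjusted p = 0.553).

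Glycolysis genes, classical HIF targets, were mostly higher in HI tumours. Of 22 tested, 18 were above 0, against 47.7% of all genes, the median log2 change was 0.38, and 11 lay at an unadjusted p under 0.05 on the higher side, against 6.76% of all genes. Slc2a1, the glucose transporter GLUT1, was at 468, 271 and 231 CPM in HI tumours, against 178, 222 and 137 CPM in MI tumours. HI1 was far above all others, HI3 only just above MI2, and the log2 change was 0.85 (SE 0.30, adjusted p = 0.257). Ldha, lactate dehydrogenase A, was at 1803, 1322 and 1133 CPM in HI tumours, against 1018, 1169 and 847 CPM in MI tumours, with HI3 below MI2, at 0.49 (SE 0.19, adjusted p = 0.284). Pgk1 and Pfkl showed the same order within HI, at 0.55 ± 0.22 and 0.49 ± 0.20. The list includes Aldoa and Gapdh, whose counts were low beside those of Ldha. Their means were 6.93 and 66.8 CPM in HI tumours, against 5.06 and 48.7 CPM in MI tumours. Whether reads of these genes were lost in counting was not tested. The count under that p rested on single tumours: it was 0 without HI1, 0 without MI3 and 2 without MI1, at medians of 0.24, 0.29 and 0.35.

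Other HIF targets were less uniform. Of 24 tested, 17 were above 0, with a median of 0.22. At an unadjusted p under 0.05, 7 were higher, against 6.76% of all genes. Ddit4 (REDD1), a brake on mTORC1, was at 257, 240.1 and 205 CPM in HI tumours, against 142, 167 and 145 CPM in MI tumours, without overlap, at a log2 change of 0.63 (SE 0.11, adjusted p = 0.0908). Car9, carbonic anhydrase 9, a pH regulator used as a hypoxia marker, was at 202, 139 and 134 CPM in HI tumours, against 71.0, 128 and 68.0 CPM in MI tumours. HI1 led again, HI2 and HI3 lay just above MI2, and the log2 change was 0.83 (SE 0.28, adjusted p = 0.253). Car12 and Pdk1 were at 0.70 ± 0.22 and 0.47 ± 0.20, and Bnip3, a mitophagy receptor, at 0.59 ± 0.24. Without HI1 the median was 0.11, with 14 above 0 and 2 under that p. The letters ACGTG, the core of the hypoxia response element, occurred on either strand of the 250 bases upstream of the start in 11 of 21 glycolysis promoters (52.4%) and 11 of 18 promoters of the other targets (61.1%), against 24.2% of the 11573 tested genes with a RefSeq promoter. These letters were not particular to the HIF lists. They also occurred in 10 of 15 promoters of the clock genes (66.7%) and 8 of 19 of the ER chaperones (42.1%) described below. The E-box CACGTG, counted for clock genes below, contains these letters. A match is a string of letters, not a shown binding site.

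Transcripts of red cells stood higher in HI than in MI tumours, and higher in HC than in MC. Of 14 erythroid genes 7 had enough counts to be tested, and 6 of them were higher with no overlap, against 8.06% of all genes. Hba-a1, an α-globin gene, was at 81.2, 53.0 and 43.5 CPM in HI tumours, against 33.4, 29.9 and 23.7 CPM in MI tumours, and at 28.6, 15.6 and 16.8 CPM in HC tumours, against 4.96, 5.14 and 5.14 CPM in MC tumours. The HI tumours were above all others, MI and HC overlapped, and MC were lowest. Alas2, the red cell enzyme that begins heme synthesis, was at 21.7, 10.6 and 10.6 CPM in HI tumours, against 6.47, 7.89 and 3.39 CPM in MI tumours, and at 5.88, 3.27 and 3.77 CPM in HC tumours, against 1.34, 0.757 and 0.840 CPM in MC tumours. The log2 changes of HI over MI were 1.03 (SE 0.25, adjusted p = 0.182) and 1.27 (SE 0.38, adjusted p = 0.217). The median over the 7 genes was 1.03, against 1.87 in HC over MC, and 0.70 without HI1. Globin reads may be split between near-identical copies, as for Hba-a1 and Hba-a2. The seventh gene tested, Ermap, was lower, at -0.90 (SE 0.33, adjusted p = 0.267), and the other 7 genes had too few counts to test.

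Iron and lipid peroxidation genes were mixed in sign, at medians of 0.02 over 17 iron genes and -0.005 over 18 lipid peroxidation genes. At an unadjusted p under 0.05, 3 iron genes were higher and 3 lower, against 6.76% and 8.57% of all genes. Of the lipid peroxidation genes 1 was higher and 3 lower. Fth1, ferritin heavy chain, was at 3331, 2723 and 2598 CPM in HI tumours, against 2014, 2249.8 and 1951 CPM in MI tumours, without overlap, at a log2 change of 0.48 (SE 0.13, adjusted p = 0.212). Tfrc, the transferrin receptor, was at 244, 99.2 and 145 CPM in HI tumours, against 75.5, 102 and 133 CPM in MI tumours, with HI2 below MI2, at 0.65 (SE 0.30, adjusted p = 0.325). Hmox1, heme oxygenase 1, was at 221, 103 and 88.0 CPM in HI tumours, against 109, 73.6 and 51.5 CPM in MI tumours, with HI1 the highest, at 0.82 (SE 0.33, adjusted p = 0.293). Without HI1 Tfrc was at 0.23 and Hmox1 at 0.29. Slc40a1, the iron exporter ferroportin, was lower without overlap, at -0.76 (SE 0.25, adjusted p = 0.241). Gpx4, the peroxidase that protects against ferroptosis, was at 249.7, 235 and 227 CPM in HI tumours, against 216, 253 and 221 CPM in MI tumours. Its log2 change was 0.04 (SE 0.11, adjusted p = 0.857), with a 95% interval of -0.19 to 0.28. Slc7a11, the cystine carrier, and Acsl4, which arms membranes with oxidizable lipids, were at -0.16 (SE 0.37, adjusted p = 0.854) and -0.38 (SE 0.25, adjusted p = 0.459), and MI3 held the highest value of both.

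Circadian clock genes were mixed in sign with a higher median. Of 19 tested, 12 were above 0, and the median was 0.33. At an unadjusted p under 0.05, 7 were higher and 1 lower, against 6.76% and 8.57% of all genes. Those named were mostly repressors and output factors of the clock. The E-box CACGTG, a palindrome bound by the CLOCK and BMAL1 pair, was searched in the 250 bases upstream of the start. It occurred in 5 of 15 clock promoters (33.3%), against 9.56% of tested genes. Those 5 were Ciart, Bhlhe41, Tef, Per1 and Cry1, while the named genes Cry2, Per3 and Npas2 held none there. Whether the E-box goes with the change was not tested. The 3 promoters below are those of named clock genes higher in HI tumours that held the E-box. They are RefSeq sequences of build GRCm38.p6, written 5′ to 3′ on the strand of the gene, with the E-boxes in capitals, from chr3:95882229-95882478 on the minus strand, chr6:145865421-145865670 on the minus strand and chr15:81802423-81802672 on the plus strand.
Ciart: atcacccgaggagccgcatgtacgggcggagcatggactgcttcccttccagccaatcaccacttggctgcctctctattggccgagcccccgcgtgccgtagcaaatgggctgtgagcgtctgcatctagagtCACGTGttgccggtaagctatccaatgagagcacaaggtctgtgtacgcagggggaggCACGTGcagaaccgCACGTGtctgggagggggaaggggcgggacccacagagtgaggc
Bhlhe41: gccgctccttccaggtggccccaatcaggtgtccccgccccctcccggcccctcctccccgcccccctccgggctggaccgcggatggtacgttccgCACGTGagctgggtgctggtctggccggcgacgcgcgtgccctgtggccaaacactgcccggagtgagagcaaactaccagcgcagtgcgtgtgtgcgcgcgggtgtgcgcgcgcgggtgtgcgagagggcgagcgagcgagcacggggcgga
Tef: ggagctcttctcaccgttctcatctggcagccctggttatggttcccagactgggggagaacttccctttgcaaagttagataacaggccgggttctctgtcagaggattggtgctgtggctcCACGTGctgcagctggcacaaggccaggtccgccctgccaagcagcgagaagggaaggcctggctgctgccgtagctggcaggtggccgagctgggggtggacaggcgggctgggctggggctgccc

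Ciart, a repressor of the clock with 3 E-boxes in that window, was at 10.4, 6.17 and 5.22 CPM in HI tumours, against 2.50, 3.81 and 1.79 CPM in MI tumours. The groups did not overlap, and the log2 change was 1.42 (SE 0.34, adjusted p = 0.169). Bhlhe41 (DEC2), another repressor, was at 87.2, 69.9 and 62.4 CPM in HI tumours, against 47.9, 48.9 and 51.2 CPM in MI tumours, at 0.57 (SE 0.13, adjusted p = 0.156). Tef, an output factor, was at 63.8, 62.0 and 54.1 CPM in HI tumours, against 36.5, 52.5 and 42.2 CPM in MI tumours, with HI3 just above MI2, at 0.45 (SE 0.12, adjusted p = 0.209). Cry2 and Per3, both repressors of CLOCK and BMAL1, were at 0.53 ± 0.16 and 0.51 ± 0.16. Npas2, an activator that can stand in for CLOCK, was lower, at -1.12 (SE 0.37, adjusted p = 0.246). HI1 was the highest HI tumour for all of Ciart, Bhlhe41, Tef, Cry2 and Per3. Without HI1 the median was 0.16, and 5 higher and 2 lower lay under that p. The hour at which tumours were taken is not given in the labels.

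Chaperones of the endoplasmic reticulum stood lower in 21 of 22 cases, with a median of -0.23. At an unadjusted p under 0.05, 9 were lower, against 8.57% of all genes. The ER stress response element, searched as CCAAT and CCACG with 9 bases between them on both strands, occurred in 8 of 19 of their promoters (42.1%), against 0.156% of tested genes. One is shown for Dnajc3, the best-ranked chaperone with a match, at chr14:118937682-118937931 on the plus strand (RefSeq, GRCm38.p6), with the element in capitals.
Dnajc3: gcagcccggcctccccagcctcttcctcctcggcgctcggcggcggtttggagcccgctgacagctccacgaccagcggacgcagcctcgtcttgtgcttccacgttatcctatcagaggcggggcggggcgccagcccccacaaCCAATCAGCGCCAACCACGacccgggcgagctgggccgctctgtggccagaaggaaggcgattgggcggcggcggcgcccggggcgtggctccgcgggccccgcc

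Dnajc3 (p58IPK), a co-chaperone of the ER, was at 117, 125 and 147 CPM in HI tumours, against 179, 147 and 239 CPM in MI tumours. MI2 coincided with HI3 to within a CPM, and the log2 change was -0.54 (SE 0.16, adjusted p = 0.215). Dnajb9, another co-chaperone of BiP, was at 45.0, 40.0 and 45.2 CPM in HI tumours, against 77.9, 52.3 and 129 CPM in MI tumours, at -0.99 (SE 0.25, adjusted p = 0.189), with MI3 the highest. Xbp1, the transcription factor of this response, was at 139, 181 and 173 CPM in HI tumours, against 211, 215 and 215 CPM in MI tumours, at -0.38 (SE 0.13, adjusted p = 0.256). Herpud1 was at -0.33 ± 0.12. Hspa5, which encodes BiP itself and was chosen after its values were seen, was at 1382, 1377 and 1445 CPM in HI tumours, against 1501, 1664 and 1436 CPM in MI tumours. It overlapped between groups, at -0.13 (SE 0.09, adjusted p = 0.489). Without MI1 the median was -0.16, with 20 of 22 below 0 and 6 under that p, and without MI3 it was -0.25, with 14 under it.

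Interferon-stimulated genes, switched on in antiviral defence, were lower in 25 of 28 cases, with a median of -0.26. At an unadjusted p under 0.05, 14 were lower and 1 higher, against 8.57% and 6.76% of all genes. Trim30a was at 84.8, 78.4 and 107 CPM in HI tumours, against 159.6, 108 and 175 CPM in MI tumours, and Ifi44 at 176, 155 and 201 CPM in HI tumours, against 286, 211 and 348 CPM in MI tumours. MI3 and MI1 were the highest for both, no groups overlapped, and the log2 changes were -0.71 ± 0.17 and -0.67 ± 0.16. Cmpk2, a mitochondrial nucleotide kinase induced by interferon, was at 31.4, 30.1 and 34.2 CPM in HI tumours, against 55.4, 41.6 and 44.8 CPM in MI tumours, at -0.57 (SE 0.17, adjusted p = 0.229). Isg20, an exonuclease, was the 1 member higher under that p, at 0.45 (SE 0.14, adjusted p = 0.232). Without MI1 21 of 28 were below 0, with a median of -0.16 and 7 under that p, and without HI1 24, with a median of -0.24 and 7 under it. B-cell and plasma cell markers, summed over 13 genes without Sdc1, were at 11.2, 2.98 and 6.91 CPM in HI tumours, against 754, 6.21 and 19.7 CPM in MI tumours. MI1 was the highest in both, and their part in the interferon values was not tested.

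Inflammatory genes ran the other way, with 18 of 23 above 0 and a median of 0.46. At an unadjusted p under 0.05 there were 8 higher and 2 lower, against 6.76% and 8.57% of all genes. Cxcl1, which attracts neutrophils, was at 55.8, 22.1 and 33.6 CPM in HI tumours, against 10.7, 12.6 and 13.2 CPM in MI tumours. HI1 was the highest, every HI tumour was above every MI tumour, and the log2 change was 1.61 (SE 0.33, adjusted p = 0.122). Csf3, the growth factor of neutrophils, was at 108, 53.7 and 72.6 CPM in HI tumours, against 39.4, 47.8 and 36.3 CPM in MI tumours, at 0.92 (SE 0.28, adjusted p = 0.222). Cxcl2 was at 37.6, 21.2 and 20.2 CPM in HI tumours, against 4.02, 9.66 and 5.27 CPM in MI tumours, at 2.06 (SE 0.75, adjusted p = 0.266). Without HI1 the median was 0.23, with 2 higher under that p. Summed skin markers, 17 genes, were at 409, 269 and 218 CPM in HI tumours, against 313, 238 and 246 CPM in MI tumours. HI1 was the highest in both, and their part in the inflammatory values was not tested.

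Epithelial genes of the carcinoma cells were above 0 in 16 of 17 cases, with a median of 0.19. At an unadjusted p under 0.05 there were 5 on the higher side and 0 on the lower, against 6.76% and 8.57% of all genes. The groups did not overlap, HI above MI, in 3 members, against 8.06% of all genes. Only 1 member lay under that p without MI1, as without HI1. Ovol1, a transcription factor of epithelium, was at 2.56, 2.29 and 1.69 CPM in HI tumours, against 0.560, 1.16 and 0.684 CPM in MI tumours, without overlap, at 1.43 (SE 0.35, adjusted p = 0.178). Krt8 was at 1204, 1195 and 1088 CPM in HI tumours, against 956, 1100.0 and 887 CPM in MI tumours, with HI3 below MI2. All 28 ribosomal protein genes were above 0, at log2 changes of 0.11 to 0.29. Only 2 lay at an unadjusted p under 0.05, near the 6.76% of all genes, and 0 without MI1. Reads of this family may be split with its many pseudogenes. Genes of cell division had a median of 0.01, with 2 of 30 higher under that p, also near the share of all genes, and 0 lower. The co-stimulator Cd86, on antigen-presenting cells, was at 9.07, 10.8 and 13.6 CPM in HI tumours, against 19.4, 17.4 and 17.2 CPM in MI tumours, without overlap, at a log2 change of -0.69 (SE 0.17, adjusted p = 0.182). Of 14 checkpoint genes 5 were lower under that p and 0 higher, against 8.57% and 6.76% of all genes. Without MI1 2 of them were lower.

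The same step in altitude without the drug, HC against MC, tells which of these differences came with vehicle as well. It shares no library with HI against MI. In HC against MC edgeR called 0 genes (0%), and 1774 (11.9%) lay at an unadjusted p under 0.05, 6.13% on the higher side and 5.8% on the lower. Of all genes 47.8% were above 0 there and 52.2% below. Of the 2279 genes under that p in HI against MI, 1574 had the same sign in HC against MC, and 343 of these were under that p there too. The share of all genes with the same sign in both was not counted, so the 1574 have no baseline here. The interaction, which tests whether the altitude change differed between IOX2 and vehicle, called 0 genes in edgeR (smallest adjusted p 0.601), with 1214 (8.16%) under an unadjusted p of 0.05, and 28 in DESeq2. The change with IOX2 was the higher in 3.97% and the lower in 4.19% of genes under that p.

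The top vessel genes had the same sign with vehicle. Vash1 was at 22.1, 23.6 and 22.1 CPM in HC tumours, against 32.9, 32.4 and 37.3 CPM in MC tumours, and Cd93 at 71.5, 63.5 and 73.1 CPM in HC tumours, against 102, 98.2 and 101 CPM in MC tumours. Both separated there too, at log2 changes of -0.60 and -0.53, and their interactions were -0.16 ± 0.13 and -0.22 ± 0.14 (log2 ± SE, adjusted p = 0.688 and 0.645). Mcam, Dll4 and Hey1 had vehicle values of -0.41, -0.45 and -1.18. Igfbp3, Ccnd2 and Il33 were also lower in HC than in MC without overlap, at -0.82, -0.50 and -0.84.

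General endothelial markers were lower with IOX2 and near 0 with vehicle. The list's median was -0.58 in HI against MI and -0.09 in HC against MC, and 10 of 24 members had an interaction at an unadjusted p under 0.05 with the HI over MI change the lower, against 4.19% of all genes. Cdh5 was at 101, 72.8 and 93.1 CPM in HC tumours, against 89.8, 97.5 and 89.4 CPM in MC tumours, and Pecam1 at 112, 103 and 104 CPM in HC tumours, against 98.6, 101 and 101 CPM in MC tumours. The HC and MC values of Cdh5 overlapped, those of Pecam1 were slightly higher in HC, and the vehicle log2 changes were -0.05 and 0.08. The interactions were -0.64 ± 0.19 for Cdh5, -0.60 ± 0.15 for Pecam1 and -0.68 ± 0.17 for Tie1, each at an adjusted p of 0.601, which does not pass. Timp3 was at -1.28 ± 0.23 with IOX2 and -0.03 with vehicle, an interaction of -1.25 ± 0.32 (adjusted p = 0.601).

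**Figure D5:**
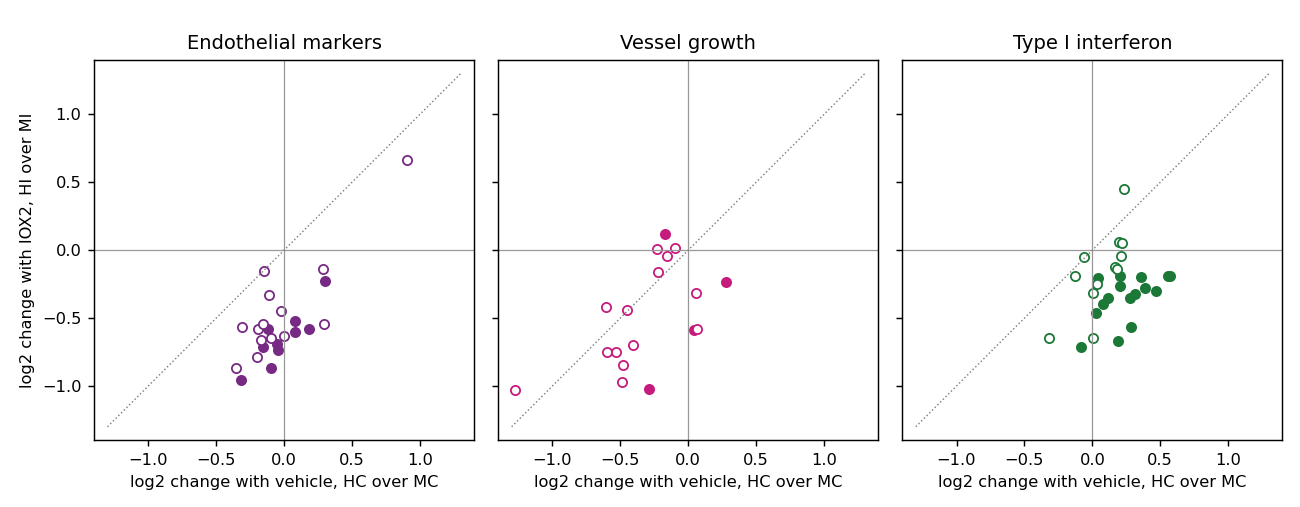
Members of 3 gene lists, with the log2 change of HC over MC (vehicle) on the x axis and of HI over MI (IOX2) on the y axis; filled points have an interaction at an unadjusted p under 0.05 and the dotted line marks equal changes. Endothelial markers cluster below the line near 0 on the x axis, and most interferon genes lie above 0 with vehicle and below 0 with IOX2.

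Interferon genes differed in sign between the comparisons. With vehicle 24 of 28 were above 0, at a median of 0.19, and with IOX2 25 were below, at -0.26. On the lower side 16 had an interaction at an unadjusted p under 0.05, against 4.19% of all genes. List interactions were not recounted with libraries left out. Over all genes the interactions under that p, 1214 in the full fit, were 714 without MI1, 643 without MC3 and 2806 without MI2. Ifi44 was at 226, 212 and 234 CPM in HC tumours, against 208, 199 and 183 CPM in MC tumours. There HC was above MC, and the interaction was -0.86 ± 0.22 (adjusted p = 0.601). Glycolysis was at a median of 0.04 with vehicle, with 2 of 22 interactions under that p on the higher side, against 3.97% of all genes.

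The 5 genes with the smallest interaction p were Ddit4, Rnf125, Hsh2d, Phf11d and Mertk. Ddit4 was at 162, 176 and 182 CPM in HC tumours, against 187, 218 and 217 CPM in MC tumours, the reverse of its order with IOX2, and its interaction was 0.88 ± 0.15 (adjusted p = 0.601). Mertk, a receptor by which macrophages take up dying cells, was at 13.4, 11.2 and 9.60 CPM in HI tumours, against 18.1, 11.4 and 14.7 CPM in MI tumours, and at 27.96, 14.8 and 21.0 CPM in HC tumours, against 8.92, 9.68 and 7.89 CPM in MC tumours. It overlapped between HI and MI but not between HC and MC, where HC was higher, at an interaction of -1.63 ± 0.33 (adjusted p = 0.601). Cirbp, an RNA-binding protein induced by cold and chosen after its values were seen, was at 62.7, 84.9 and 71.0 CPM in HI tumours, against 41.2, 55.3 and 40.9 CPM in MI tumours, and at 49.8, 45.2 and 57.2 CPM in HC tumours, against 67.4, 61.0 and 89.0 CPM in MC tumours. Its groups separated in opposite directions, at an interaction of 1.18 ± 0.24 (adjusted p = 0.601).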

How the data were processed

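Bulk RNA sequencing was done on 12 tumours, 3 in each of 4 groups, from a study of 24 mice, with paired reads of 150 bases. The submitters' processing notes name build GRCm39, R 3.5.1 with DESeq2 1.22.2, the counter HTSeq 0.11.2, the aligner HISAT2 2.1.0 and the trimmer fastp 0.20.1. Neither annotation nor strandedness is given in these sources. The authors deposited raw counts per gene, used for every main value, and FPKM per gene, used as an alternative. The labels give each library its own mouse.

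In R 4.3.3, edgeR 4.0.16 fitted a quasi-likelihood model to all 12 libraries with TMM scaling and 1 mean per group, so that the spread is shared. Genes with at least 10 counts in at least 3 of the 6 HI and MI libraries were tested, and Benjamini-Hochberg adjusted p is over all 14869. CPM are TMM-scaled, and an SD is over 3 mice. An exact permutation test of 3 against 3 cannot give a p below 0.1. Alternatives were DESeq2 1.42.0, limma 3.58.1 (voom, and log2 FPKM plus 0.1 or 1), other filters and scalings, a replicate block and leaving out each library. The scripts were tested on simulated data.

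Lists, 49 from general knowledge and 4 collected after values were seen, are described by counts and medians. The members, lists and named genes were chosen with earlier results of these data known. Named genes are 11 always given (the Egln genes, Epas1 and Hif1a, and the iron and ferroptosis genes Acsl4, Fth1, Gpx4, Hmox1, Slc7a11 and Tfrc). Added were the 12 higher and 12 lower with the smallest p, and the 6 largest each way under an unadjusted p of 0.05, with groups not overlapping and at least 5 CPM in the higher group. Up to 6 members per list by p and the 5 smallest interaction p complete the rule. Predicted, clone-named, pseudo and receptor-segment genes were left out. Promoters are RefSeq windows of an older build, GRCm38.p6, matched by symbol for 11573 tested genes, so no other gene positions are given.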

Additional observations from a re-analysis of the deposited data

Results flagged for a closer look

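In 11 named genes the 3 HI tumours all lay to one side of the 3 MI tumours while the 3 HC tumours all lay to the other side of the 3 MC tumours. Ddit4 was higher in HI and lower in HC, and its change with IOX2 exceeded that with vehicle by 0.88 on the log2 scale. Rnf125, an E3 ubiquitin ligase, was at 11.5, 12.5 and 10.4 CPM in HI tumours, against 16.4, 13.6 and 17.0 CPM in MI tumours, and at 18.4, 15.7 and 13.3 CPM in HC tumours, against 9.30, 11.0 and 10.2 CPM in MC tumours, a difference between the changes of -1.09. Hsh2d, an adaptor protein of lymphocytes, was at 5.84, 5.30 and 5.60 CPM in HI tumours, against 9.27, 7.09 and 7.04 CPM in MI tumours, and at 9.22, 8.70 and 9.81 CPM in HC tumours, against 6.50, 5.72 and 6.39 CPM in MC tumours, a difference of -1.06. Phf11d, a PHD-finger protein, was at 44.8, 44.9 and 51.7 CPM in HI tumours, against 67.0, 57.8 and 55.2 CPM in MI tumours, and at 61.6, 71.1 and 65.6 CPM in HC tumours, against 55.3, 50.1 and 46.0 CPM in MC tumours, a difference of -0.74. The others with this pattern were Cirbp, at a difference of 1.18, and Ifi44, Hsph1 and Pecam1, at -0.86, -0.78 and -0.60. Fos, Cebpg and G6pdx, members of lists not described above, were at -0.67, -0.62 and 0.32. The interaction in edgeR did not pass for any of the 11 (adjusted p = 0.601 each). Over all 14869 genes, 106 separated in opposite ways in the 2 comparisons and 468 in the same way. Ddit4, Rnf125, Hsh2d and Phf11d were picked for small interaction p, so their separation is a description.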

How the results depend on the processing

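Of 14869 genes, edgeR called 0 between HI and MI tumours, and the count moved with the tool and with MI2. DESeq2 called 374, no filter on low counts 16, and DESeq2 size factors in edgeR or a filter of 1 CPM 1 each (Vash1). Leaving out 1 library at a time gave 0 to 563 calls, with 563 without MI2, 3 without MI3 and 1 each without HC3 or HI3. Of the 563 calls, 226 were among the 374 of DESeq2. For the interaction, 0 in edgeR, DESeq2 called 28 and leave-one-out gave 0 to 2, the 2 without MI2. Leaving out MI1 and HI1 together, an alternative chosen after seeing the data, gave 0, as did both limma fits, filterByExpr, the 6 libraries alone, and leaving out mitochondrial and immunoglobulin genes.

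Signs reversed for 4 genes when libraries were left out. Egln2 (log2 -0.04) ranged from -0.11 to 0.040, its highest without MI2. Gpx4 (0.04) ranged from -0.015 without MI1 to 0.12, was at -0.00159 without HI1 and at -0.049 without both. Slc7a11 (-0.16) ranged from -0.44 to 0.19 and Acsl4 (-0.38) from -0.61 to 0.067, both highest without MI3. The causes were not tested. The other 46 of 50 named genes followed kept their sign in each of up to 25 alternatives run for them (24 for Cd79b). Most of these 46 were picked because their groups did not overlap. That choice leaves little room for a reversal when a library is left out, so the 46 are no measure of stability. All 4 genes that reversed were among those always given, which were not picked for separation. The replicate block gave 0 calls in HI against MI and in the interaction. Deviations of HI1 and MI1, HI2 and MI2, and HI3 and MI3 correlated at 0.268, 0.0714 and 0.141. Other positive pairs were HI3 with MI2 (0.21) and HI2 with MI1 (0.081). HI3 with MI1 (-0.34), HI1 with MI2 (-0.26), HI2 with MI3 (-0.17) and HI1 with MI3 (-0.006) were negative. With 3 tumours in each group, these values cannot decide whether replicate numbers pair the tumours. Depth limits a gene with 0 counts in a library to under 0.0728 to 0.0854 CPM there.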

Other observations

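Several other lists changed in size or sign when a single library was left out. All 13 dendritic cell genes tested were below 0 in HI over MI, at a median of -0.74. At an unadjusted p under 0.05, 3 were lower, against 8.57% of all genes. Without MI1 all 13 were still below 0, at a median of -0.33, with 0 under that p. The vehicle median was -0.99, with all 13 below 0. MHC class II and mast cell genes kept medians below 0 with any 1 library left out, at -0.46 to -0.17 and -0.85 to -0.43. B-cell and plasma cell genes had a median of -4.22, and of -0.35 without MI1. Mitochondrially encoded genes had a median of -0.39, and of -0.08 without MI3. Of these genes 6 of 13 were lower under that p, against 8.57% of all genes. All 19 skeletal muscle genes were below 0, at a median of -0.81, and 0 lay under that p. Without MI1 18 of 19 were above 0, at a median of 0.63. Adipocyte genes had a median of 0.52 in HI over MI, with 0 of 15 under that p, against 2.60 in HC over MC. Without HI2 their median was -0.06.

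Stress genes outside the endoplasmic reticulum went both ways. Hsph1, a cytosolic co-chaperone, was at 49.1, 39.9 and 40.2 CPM in HI tumours, against 57.7, 63.4 and 57.3 CPM in MI tumours, and at 60.3, 64.0 and 53.8 CPM in HC tumours, against 49.6, 52.2 and 41.5 CPM in MC tumours. Every HI tumour was below every MI tumour, and the log2 change was -0.47 (SE 0.11, adjusted p = 0.182), with an interaction of -0.78 ± 0.16. Gsta4, a glutathione transferase for lipid aldehydes, was at 28.1, 22.7 and 13.7 CPM in HI tumours, against 6.57, 13.1 and 8.66 CPM in MI tumours, above MI throughout, at 1.19 (SE 0.31, adjusted p = 0.191). Trib3, a pseudokinase induced by ATF4, was at 58.2, 46.0 and 41.8 CPM in HI tumours, against 26.7, 34.2 and 29.4 CPM in MI tumours, with no overlap, at a log2 change of 0.69 (SE 0.19, adjusted p = 0.212). Over 15 glucocorticoid-responsive genes the median was 0.21, and 2 stood higher under an unadjusted p of 0.05, against 6.76% of all genes. Without HI1 the median was -0.02, with 7 above 0. Their median was 0.79 in HC over MC.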
